A study of Mus musculus with 12 samples.

Results

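Cytochrome P450 families 1 to 4 were measured in mouse liver after bile duct ligation (BDL) and after sham surgery, with and without factor VII-activating protease (FSAP), the plasma serine protease made from the Habp2 gene. Members were all genes whose name on the array was Cyp, then a digit from 1 to 4, a lower-case letter and a number with an optional last letter. This rule gave 71 of 31870 gene names, carried by 93 of 39429 probes. Of the 71, 66 passed the filter on dim probes (well above background on 3 or more of 12 arrays), as did 19531 of all names. The 5 that did not pass were Cyp2b19, Cyp2c65, Cyp2w1 and Cyp4x1, well above background on 0 arrays, and Cyp2b23, well above background on 1. Cyp2c66 stood just inside the filter with 5 arrays, followed by Cyp1b1 and Cyp4a12b with 6 each. By the probe positions in mm9 the members lay on 9 chromosomes, with 14 on chromosome 7, 13 each on chromosomes 4 and 19, 9 each on 5 and 15, 8 on 17, 2 each on 8 and 9, and 1 on chromosome 3.

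The 12 livers fell into 4 groups of 3 mice. WT mice were FSAP+/+ littermates of the FSAP-/- mice, called FSAP-deficient here, and both came from matings of heterozygotes in a BalbC background that had reached the F3 generation. The mice could therefore still differ at loci near Habp2 and at loci elsewhere in the genome. All mice were 20 to 30 weeks old; under isoflurane the common bile duct was tied in the BDL groups, sham mice had the other steps of the procedure, and livers were frozen 2 weeks later. The labels give the FSAP deletion as present in the whole animal and do not give the sex of any mouse.

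Cytochromes P450 are haem enzymes, most of them held in the endoplasmic reticulum, that insert an oxygen atom into a substrate with electrons passed on by P450 oxidoreductase or cytochrome b5. Families 1 to 3 are known mainly for the oxidation of drugs, pollutants, steroids and bile acids, and family 4 for the hydroxylation of fatty acids and eicosanoids at the end of the chain. The hepatocyte is the main site of most of them, many are made in one zone of the liver lobule, and several mouse members are made chiefly in female or chiefly in male liver under the pattern of growth hormone release.

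Levels are given as the log2 of a probe's signal over the 75th percentile of its array, so that 0 is that percentile; a change is a difference between 2 group means of such levels ± its standard error (SE), and 1 unit is a doubling. Levels of different genes are not compared, since each probe has its own brightness. Between 54.5% and 62.3% of the spots of an array were well above background, and 0 spots were saturated. Habp2 was at 5.37 to 5.50 in WT sham and 4.97 to 5.15 in WT BDL livers, against -6.74 to -3.45 in FSAP-deficient sham livers (well above background on 1 of 3 arrays) and -7.18 to -6.95 in FSAP-deficient BDL livers (on 0 of 3). Arrays of the 2 genotypes shared only 1 of 4 slides: slide 1 held the 3 WT sham arrays and WT BDL 1, slide 2 held WT BDL 2 and 3 and FSAP-deficient sham 2, slide 3 held FSAP-deficient sham 3 and the 3 FSAP-deficient BDL arrays, and slide 4 held FSAP-deficient sham 1.

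3 of the 12 arrays stood apart from the rest. Ddx3y, a Y-linked gene, was at 1.54 in FSAP-deficient sham 1, 1.15 in FSAP-deficient BDL 1 and 1.03 in FSAP-deficient BDL 2, and at -7.56 to -6.47 in the other 9. Xist, the RNA of the inactive X chromosome, was at -7.52, -7.14 and -6.97 in those 3 and at -1.53 to 0.07 in the other 9. All 6 WT livers were among the 9 without Y-linked signal. Called changes that these 3 arrays moved by over 1.5 times, or whose call was lost without them, are given with and without them; without them FSAP-deficient BDL 3 is the only array of its group and is assumed to vary like the other groups.

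Sequence just upstream of the genes was compared for members that moved together and for close relatives that did not. RefSeq (GRCm38.p6) gave a start site for 56 of the 71 members, and the 250 bases before it were searched on both strands for 5 short motifs. TATAAA, the letters of the TATA box, was somewhere in the window of 24 of 56 members (42.9%) and in 14.3% of the same windows of 27025 genes. It lay 29 bases before the start in Cyp1a2 and 234 in Cyp3a11, and its place was not required to be that of a TATA box. CAAAGTCCA, a form of the site for the hepatocyte nuclear receptor HNF4, was in 7 of 56 (12.5%) and in 0.451% of all windows; the 7 were Cyp2c65, Cyp2c67, Cyp2c68, Cyp2c70, Cyp3a11, Cyp3a16 and Cyp3a41b. TTGCNNAA, a form of the site for C/EBP factors, was in 11 members (19.6%) against 10.8% of all windows, and those 11 included each of the 5 Cyp2b members. GCGTG, the core of the element bound by the aryl hydrocarbon receptor (AhR), was in 11 members (19.6%) against 30.9%. TTCNNNGAA, the form bound by STAT factors, was in 2 (3.57%) against 8.13%. In the 56 windows, matches to different motifs overlapped in 0 members. Related members have related promoters, so these shares are not counts of independent genes.

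The windows of 8 members follow, 5′ to 3′ and ending at the base before the start site, with matches to the motifs named beside each set in capitals; a match is a description of the letters. The first pair was marked for GCGTG and TATAAA. Cyp1a2 (GRCm38, chr9:57683656-57683905, minus strand), which fell after BDL, has TATAAA 29 bases before the start and Cyp1b1 (chr17:79715062-79715311, minus), which rose, has the AhR core 76 bases before it, read on the other strand as CACGC. Cyp1a1, whose window is not printed here, has GCGTG at 54 and TATAAA at 30 bases, and passed in neither genotype. Of the 11 members with GCGTG, 4 fell, 3 rose and 3 did not pass in WT, and 1 was not tested. The pair therefore does not stand for the motif.
Cyp1a2: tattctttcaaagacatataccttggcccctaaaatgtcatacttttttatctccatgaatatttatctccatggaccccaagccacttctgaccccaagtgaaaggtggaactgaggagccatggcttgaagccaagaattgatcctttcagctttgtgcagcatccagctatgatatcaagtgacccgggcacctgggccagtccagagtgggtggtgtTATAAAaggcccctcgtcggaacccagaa
Cyp1b1: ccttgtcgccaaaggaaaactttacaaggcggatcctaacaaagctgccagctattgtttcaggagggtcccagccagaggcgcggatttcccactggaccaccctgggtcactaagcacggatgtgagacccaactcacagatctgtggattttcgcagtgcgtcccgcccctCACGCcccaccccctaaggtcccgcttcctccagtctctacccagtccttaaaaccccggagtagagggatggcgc

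The next 4 all hold CAAAGTCCA. Cyp2c67 (chr19:39649043-39649292, minus) and Cyp3a41b (chr5:145584731-145584980, minus) fell after BDL, while Cyp2c70 (chr19:40187287-40187536, minus) and Cyp3a11 (chr5:145879855-145880104, minus) did not pass the test. The match lies 125, 95, 64 and 109 bases before the start in Cyp2c67, Cyp3a41b, Cyp2c70 and Cyp3a11. TATAAA is also marked, in Cyp2c70 on the other strand as TTTATA; a match to TTGCNNAA in Cyp2c67 is not marked.
Cyp2c67: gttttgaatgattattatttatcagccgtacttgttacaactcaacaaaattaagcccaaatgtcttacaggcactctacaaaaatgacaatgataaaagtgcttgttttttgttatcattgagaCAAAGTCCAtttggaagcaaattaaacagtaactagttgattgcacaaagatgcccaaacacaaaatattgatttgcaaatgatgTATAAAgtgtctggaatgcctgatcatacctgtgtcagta
Cyp3a41b: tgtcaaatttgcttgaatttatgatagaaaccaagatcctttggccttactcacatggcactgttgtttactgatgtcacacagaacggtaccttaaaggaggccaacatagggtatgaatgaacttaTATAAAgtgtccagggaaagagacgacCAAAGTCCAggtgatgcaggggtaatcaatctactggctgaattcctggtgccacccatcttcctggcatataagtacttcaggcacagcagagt
Cyp2c70: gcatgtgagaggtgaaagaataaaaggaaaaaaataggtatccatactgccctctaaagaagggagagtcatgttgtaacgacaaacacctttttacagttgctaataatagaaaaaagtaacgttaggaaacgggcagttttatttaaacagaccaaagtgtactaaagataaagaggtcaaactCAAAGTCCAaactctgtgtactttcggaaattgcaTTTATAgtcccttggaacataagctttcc
Cyp3a11: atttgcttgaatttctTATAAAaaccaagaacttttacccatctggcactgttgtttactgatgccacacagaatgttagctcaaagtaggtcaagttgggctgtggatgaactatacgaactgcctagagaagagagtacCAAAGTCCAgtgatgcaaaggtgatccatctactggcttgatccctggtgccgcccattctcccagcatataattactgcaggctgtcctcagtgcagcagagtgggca

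Cyp2b9 (chr7:26173159-26173408, plus) and Cyp2b13 (chr7:26061245-26061494, plus), neighbours in which FSAP-deficient sham 1 lay far below the other sham arrays, are identical at 248 of 250 bases, and TTGCNNAA lies 180 bases before the start in both.
Cyp2b9: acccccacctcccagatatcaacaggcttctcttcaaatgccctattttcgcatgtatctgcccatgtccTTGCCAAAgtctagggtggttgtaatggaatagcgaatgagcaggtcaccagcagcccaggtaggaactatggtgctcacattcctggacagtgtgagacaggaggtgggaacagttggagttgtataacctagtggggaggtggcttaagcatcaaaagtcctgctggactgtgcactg
Cyp2b13: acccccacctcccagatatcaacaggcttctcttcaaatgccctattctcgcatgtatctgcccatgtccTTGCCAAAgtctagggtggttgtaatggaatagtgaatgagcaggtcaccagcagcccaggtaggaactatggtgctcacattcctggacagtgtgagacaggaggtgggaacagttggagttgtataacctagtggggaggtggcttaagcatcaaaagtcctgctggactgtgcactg

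**Figure D1:**
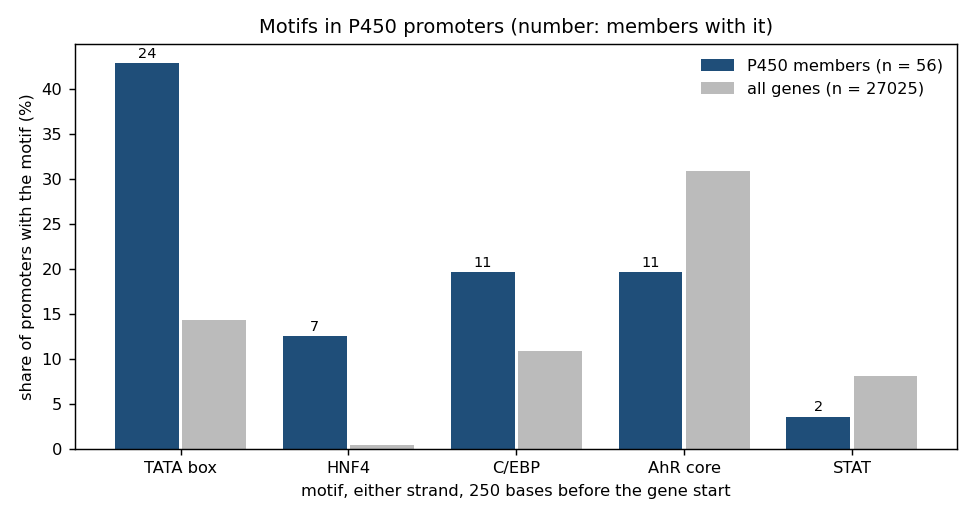
Share of promoter windows (percent, y axis; 250 bases before the start site) that hold each of 5 motifs (x axis), for the 56 members with a window and for all 27025 genes. TATAAA (labelled TATA box, counted anywhere in the window) and the HNF4 form are in 42.9% and 12.5% of members against 14.3% and 0.451% of all windows. The AhR core and the STAT form are in smaller shares of members than of all windows.

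After BDL most members fell. In WT liver 39 of 66 tested members fell and 6 rose, where 17.7% of all genes tested fell and 15.2% rose, 32.9% in either direction (limma, adjusted p below 0.05). In FSAP-deficient liver 37 fell and 5 rose, where 22.8% of all genes fell and 16.2% rose, 39.1% in either direction. The median change of the 66 was -1.08 in WT and -1.13 in FSAP-deficient liver, against -0.03 and -0.16 over all genes tested. Both comparisons gave a fall for 33 members and a rise for 5 (Cyp1b1, Cyp2c66, Cyp2s1, Cyp4f16 and Cyp4f18), 17 passed in neither, and none passed in opposite directions. Of these rising members, Cyp1b1 and Cyp2c66 had passed the filter on dim probes only through BDL arrays. Passing in 1 genotype and not in the other does not show a difference between genotypes, which is tested further on.

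The values of the single arrays gave the same picture. In WT liver the 3 BDL values did not overlap the 3 sham values for 50 of 66 members (52.1% of all genes), and in FSAP-deficient liver for 40 (47.5% of all genes). The median over the members, set against the WT sham mean of each, was -0.02 to 0.03 in WT sham arrays, -1.20 to -0.99 in WT BDL arrays, -0.02 to 0.11 in FSAP-deficient sham arrays and -1.40 to -0.95 in FSAP-deficient BDL arrays. Within slide 1, which held WT BDL 1 and all WT sham arrays, all 45 members called in WT kept their direction, and within slide 3 all 42 called in FSAP-deficient liver did. The arrays of these slides also entered the calls, so this agreement is not an independent check. With slide as a block, the BDL changes rest on those 2 slides alone, that is on WT BDL 1 against the 3 WT sham arrays and on the 3 FSAP-deficient BDL arrays against FSAP-deficient sham 3, so that 1 arm of each is a single array assumed to vary like the rest. In that fit 30 members fell and 3 rose in WT and 31 fell and 4 rose in FSAP-deficient liver. In WT 13 calls were lost with the block (Cyp2a12, Cyp2c44, Cyp2d10, Cyp2d22, Cyp2d34, Cyp2s1, Cyp3a16, Cyp4f13, Cyp4f15, Cyp4f17, Cyp4f18, Cyp4f39 and Cyp4v3; adjusted p from 0.0539 to 0.748) and 1 was gained. In FSAP-deficient liver 13 were lost (Cyp1a2, Cyp2c44, Cyp2d10, Cyp2d22, Cyp2d34, Cyp2f2, Cyp2r1, Cyp2u1, Cyp3a57, Cyp4a32, Cyp4f15, Cyp4f17 and Cyp4f18; adjusted p from 0.055 to 0.412) and 6 were gained.

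Each value is the mean over a piece of whole liver, in which fewer hepatocytes and less of an RNA per hepatocyte cannot be told apart. Of 9 hepatocyte marker genes tested, 2 fell (Ttr and Apoa2) and 1 rose (Hpx) in WT after BDL, with a median change of -0.30, and 4 fell in FSAP-deficient liver (median -0.61); their summed linear level, in multiples of the 75th percentile, was 4238 to 5060 in WT sham, 3183 to 6266 in WT BDL, 4550 to 4975 in FSAP-deficient sham and 3193 to 4259 in FSAP-deficient BDL livers. Bile duct markers (Krt19, Krt7, Epcam, Sox9, Spp1, Cldn4 and Cldn7) rose in 7 of 7 tested in both genotypes, with medians of 3.30 and 3.52; their sums were 1.35 to 1.62 and 13.3 to 16.5 in WT sham and BDL, and 1.29 to 1.97 and 11.7 to 43.9 in FSAP-deficient sham and BDL. Macrophage markers rose in 5 of 7 and 6 of 7, with sums of 29.9 to 37.0 and 50.9 to 73.6 in WT and 20.6 to 30.1 and 64.5 to 75 in FSAP-deficient liver. Stellate cell and myofibroblast markers rose in 3 of 8 and 6 of 8, with sums of 40.0 to 44.1 and 26.7 to 87.6 in WT and 33.1 to 41.2 and 79.7 to 192 in FSAP-deficient liver. Of all genes tested 17.7% fell and 15.2% rose in WT, and 22.8% fell and 16.2% rose in FSAP-deficient liver. The shares of hepatocyte markers that fell and rose in WT (22.2% and 11.1%) were near those of all genes. Each marker in these 4 lists was well above background on some arrays. The part of these shifts in cell markers in the P450 changes was not tested.

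**Figure D2:**
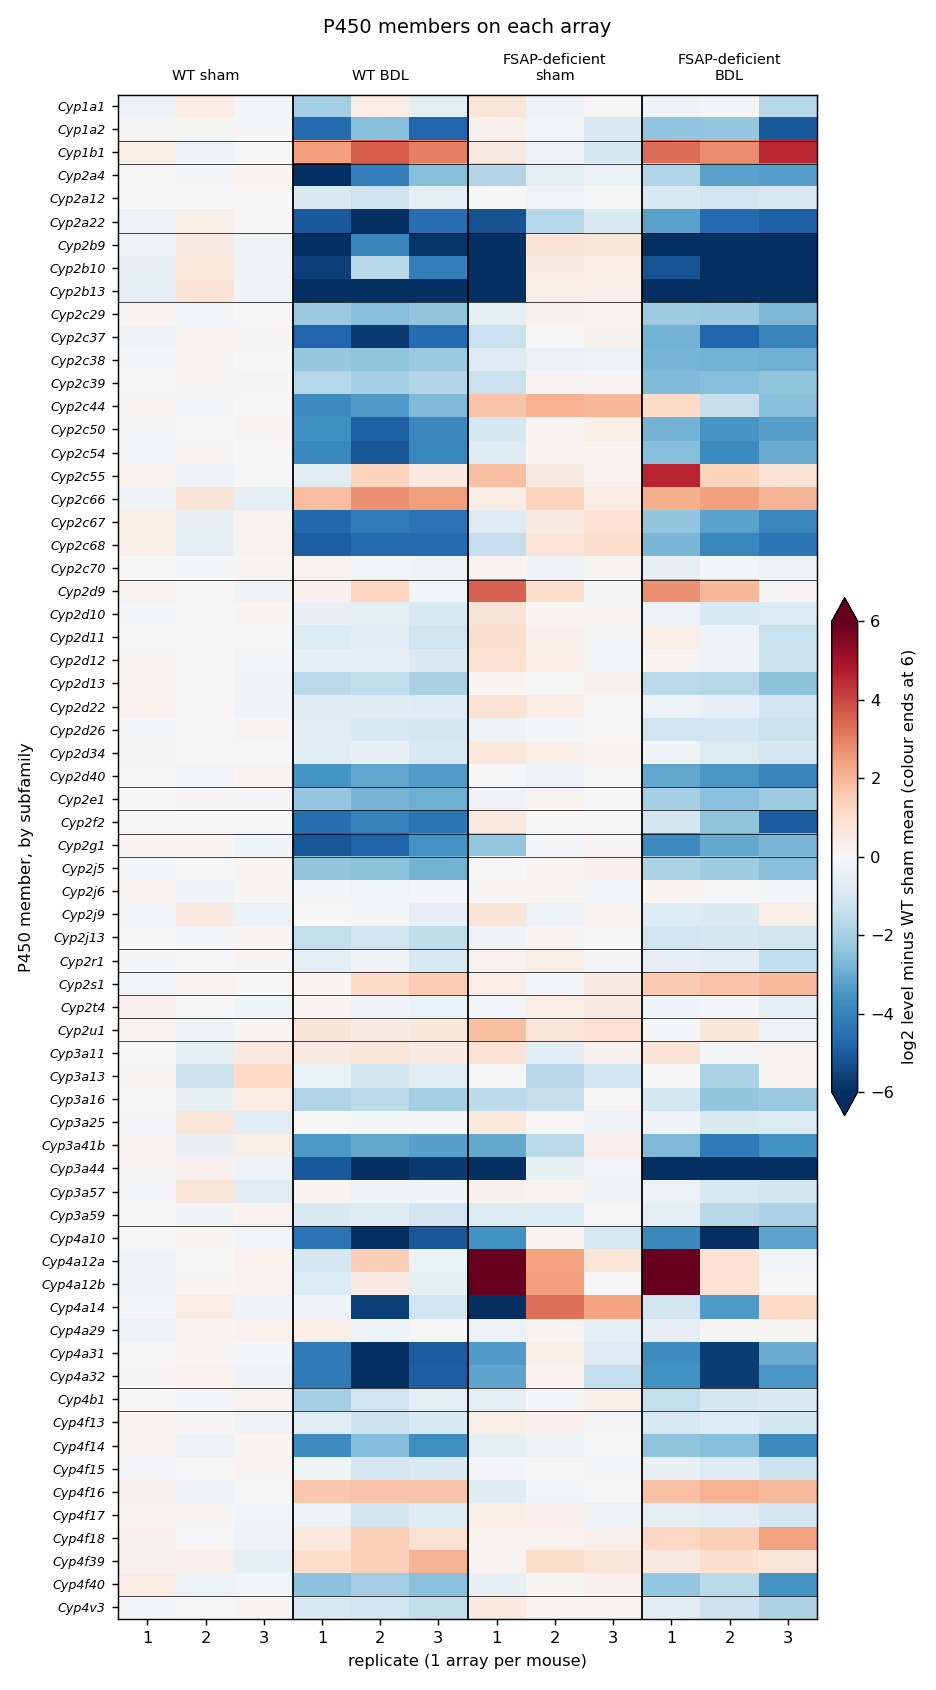
Heat map of the 66 tested members (rows, by subfamily) over the 12 arrays (columns, by group): colour is the log2 level minus the mean of the WT sham arrays, blue lower and red higher. The 6 BDL columns are mostly blue, while FSAP-deficient sham 1 departs from the other sham arrays in Cyp2b, Cyp3a and Cyp4a members.

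**Figure D3:**
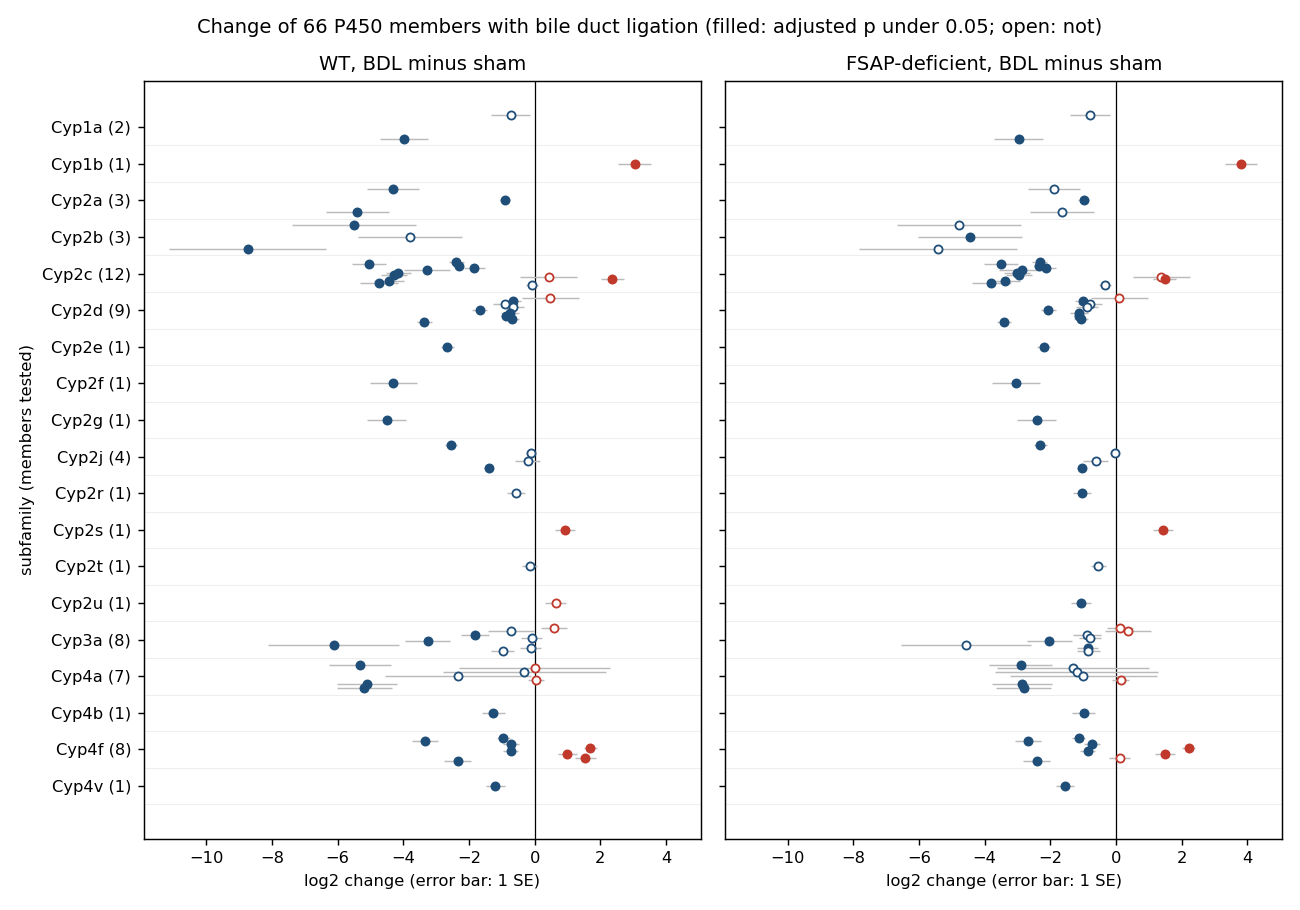
Log2 change after BDL (x axis) of each tested member, by subfamily (y axis), in WT and FSAP-deficient liver; 1 point is 1 member, bars are 1 SE, and filled points passed the test. Cyp2c has 9 called members left of 0 and 1 right of it in both panels, while Cyp4f has 5 called members left of 0 and 3 (WT) or 2 (FSAP-deficient) right of it.

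Members of family 1 moved in different directions. Cyp1a2, which demethylates caffeine and activates aromatic amines in pericentral hepatocytes, was at 3.77, 3.78 and 3.61 in WT sham and -0.90, 1.17 and -1.02 in WT BDL livers, and at 3.97, 3.54 and 2.84 in FSAP-deficient sham and 1.35, 1.40 and -1.30 in FSAP-deficient BDL livers. The groups did not overlap in either genotype. The fall was 15.7-fold in WT (change -3.97 ± 0.73, adjusted p = 0.0022) and 7.81-fold in FSAP-deficient liver (-2.97 ± 0.73, adjusted p = 0.00898). Cyp1a1, its inducible relative, was dim in all groups (-6.55 to -3.76, well above background on 7 of 12 arrays), with changes of -0.73 ± 0.60 (adjusted p = 0.386) and -0.79 ± 0.60 (adjusted p = 0.329). Cyp1b1, made mostly outside the hepatocyte, was not well above background in any of the 6 sham livers. It was at -3.04, -1.88 and -2.50 in WT BDL and -2.14, -2.72 and -1.01 in FSAP-deficient BDL livers, well above background in all 6. Set against the lowest signal well above background on each sham array, the rise was at least 5.55-fold in WT and at least 7.13-fold in FSAP-deficient liver. The limma tests used the dim sham values themselves, with changes of 3.04 in WT (adjusted p = 0.00102) and 3.81 in FSAP-deficient liver (adjusted p = 0.000227).

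Other genes of the AhR response did not share 1 direction. None of 5 (Nqo1, Tiparp, Aldh3a1, Ugt1a6a and Gsta1) passed in WT liver (limma), where their median was 0.46 and 1, Ugt1a6a, had an unadjusted p below 0.05. Of all genes tested in WT, 32.9% passed and 43.3% had such an unadjusted p. In FSAP-deficient liver 16.2% of all genes rose and 22.8% fell. In FSAP-deficient liver 2 rose and 1 fell: Gsta1, a glutathione transferase, rose by 3.85 ± 0.97 and Nqo1, a quinone reductase, by 1.20 ± 0.41, while Ugt1a6a, a glucuronosyltransferase, changed by -1.47 ± 0.40. The rise of Nqo1 was 0.65 without FSAP-deficient sham 1 (adjusted p = 0.0923), and its call was also lost without each FSAP-deficient BDL array, each WT sham array or WT BDL 3 (0.0514 to 0.121). Without the 3 arrays with Y-linked signal none of these 3 passed (adjusted p = 0.06 to 0.0719), and Ugt1a6a did not without FSAP-deficient sham 3 (0.0572). Ahr itself rose by 0.84 ± 0.20 in WT and 0.63 ± 0.20 in FSAP-deficient liver, the latter not past the test without FSAP-deficient sham 1 or 2, without FSAP-deficient BDL 2 or 3 (adjusted p from 0.0575 to 0.0992) or without the 3 arrays with Y-linked signal (0.0775).

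Single-member subfamilies of the lobule's zones fell in both genotypes. Cyp2e1, the ethanol- and paracetamol-oxidising enzyme of pericentral hepatocytes, was at 9.21, 9.29 and 9.09 in WT sham and 6.92, 6.43 and 6.26 in WT BDL livers, a 6.32-fold fall (-2.66 ± 0.20, adjusted p = 1.25e-05). In FSAP-deficient livers it was at 8.97, 9.34 and 9.21 after sham surgery and 7.22, 6.71 and 7.01 after BDL, a 4.58-fold fall (adjusted p = 3.24e-05). The spread within each group was small beside these falls. Cyp2f2, which oxidises naphthalene and is made in periportal hepatocytes, was at 7.40, 7.42 and 7.39 in WT sham and 2.90, 3.37 and 3.04 in WT BDL livers (-4.30 ± 0.73, adjusted p = 0.00133). Its FSAP-deficient BDL livers were spread from 2.39 to 6.32 (6.32, 4.98 and 2.39), against 7.97, 7.40 and 7.41 after sham surgery (-3.03 ± 0.73, adjusted p = 0.0076). The 2 higher of those BDL values came from the arrays with Y-linked signal; the change was -5.02 without the 3 arrays with such signal (adjusted p = 0.000149) and -1.95 without FSAP-deficient BDL 3 (adjusted p = 0.00256). Cyp2g1, best known from olfactory mucosa, was at 2.34, 2.32 and 1.95 in WT sham and -2.94, -2.60 and -1.37 in WT BDL livers (-4.51 ± 0.60, adjusted p = 0.000306); in FSAP-deficient livers it was at -0.10, 2.07 and 2.28 against -1.60, -0.85 and -0.55 (-2.42 ± 0.60, adjusted p = 0.00881).

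Cyp2c had 12 members tested, of which 9 fell and 1 rose in each genotype. Cyp2c37, an arachidonic acid hydroxylase, fell most in WT liver. It was at 5.88, 6.23 and 6.14 in WT sham and 1.31, 0.36 and 1.45 in WT BDL livers, a 32.9-fold fall (-5.04 ± 0.52, adjusted p = 7.08e-05). FSAP-deficient livers had values of 4.75, 6.09 and 6.32 against 3.25, 1.31 and 2.06, an 11.4-fold fall (-3.52 ± 0.52, adjusted p = 0.000477). No BDL value reached a sham value. Cyp2c50, Cyp2c54, Cyp2c67 and Cyp2c68 changed by -4.74 to -4.15 in WT and -3.80 to -2.96 in FSAP-deficient liver, Cyp2c68 falling most of the 12 in the latter. Cyp2c29, which makes epoxides of arachidonic acid, changed by -2.39 ± 0.23 and -2.33 ± 0.23, and Cyp2c38 by -2.31 ± 0.14 and -2.34 ± 0.14 with its brighter probe. The other probe of Cyp2c38 changed by -1.40 (adjusted p = 0.400) and -0.18 (adjusted p = 0.922), with a standard deviation of 3.12 among the 3 FSAP-deficient sham livers, so the fall rests on 1 of 2 probes.

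Cyp2c70, Cyp2c55 and Cyp2c66 were not among those that fell. Cyp2c70, which turns chenodeoxycholic acid into the muricholic acids of the mouse, was at 6.63, 6.57 and 6.72 in WT sham and 6.83, 6.46 and 6.39 in WT BDL livers, and at 6.87, 6.37 and 6.72 against 6.13, 6.53 and 6.28 in FSAP-deficient livers. Those groups overlapped, and the changes were -0.08 ± 0.18 (adjusted p = 0.778) and -0.34 ± 0.18 (adjusted p = 0.158). Cyp2c55 changed by 0.43 ± 0.87 and 1.37 ± 0.87 (adjusted p = 0.741 and 0.238). Cyp2c66 was dim, well above background in 0 of 6 sham, 2 of 3 WT BDL and 3 of 3 FSAP-deficient BDL livers. It rose at least 2.36-fold in WT and at least 2.10-fold in FSAP-deficient liver. The limma tests used the dim values themselves, with changes of 2.37 (adjusted p = 0.00072) and 1.48 (adjusted p = 0.00843). The second change was 1.17 without the 3 arrays with Y-linked signal. Neither rise passed after background correction with normexp (adjusted p = 0.0625 in WT and 0.9 in FSAP-deficient liver). Probes of some relatives share sequence: those of Cyp2c67 and Cyp2c68 are identical at 55 of 59 aligned bases and those of Cyp2c37 and Cyp2c50 at 35 of 40, so that signal of one gene on the probe of the other cannot be told apart from its own.

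Cyp2a members fell in WT liver in 3 of 3 cases. Cyp2a4, a testosterone 15-alpha-hydroxylase higher in female liver, was at 8.73, 8.70 and 8.88 in WT sham and 2.47, 4.67 and 6.22 in WT BDL livers (-4.32 ± 0.78, adjusted p = 0.00198). In FSAP-deficient livers it was at 7.02, 8.24 and 8.38 against 6.97, 5.55 and 5.45 (-1.89 ± 0.78, adjusted p = 0.0788), groups that did not overlap but did not pass the test. That p was 0.0314 or below when WT BDL 1 or WT BDL 3 was left out, arrays that enter through the shared estimate of spread. Cyp2a22 changed by -5.40 ± 0.97 in WT (adjusted p = 0.00181; 1 of 3 BDL arrays well above background) and by -1.64 ± 0.97 in FSAP-deficient liver (adjusted p = 0.206, and 0.00594 with a change of -2.96 without FSAP-deficient sham 1). Cyp2a12, a bile acid and steroid hydroxylase, fell in both (-0.90 ± 0.17 and -0.98 ± 0.17), the second not with quantile normalization or in the authors' log2 table.

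Cyp2b members varied widely among the FSAP-deficient sham livers, where Cyp2b13 had the largest standard deviation of the members tested (6.39). In the other groups the largest was that of a member outside Cyp2b. Cyp2b10, the classical target of the constitutive androstane receptor (CAR), was at 5.15, 6.26 and 5.41 in WT sham and -0.01, 3.93 and 1.50 in WT BDL livers (-3.80 ± 1.58, adjusted p = 0.0897). FSAP-deficient livers had values of -0.62, 6.11 and 5.99 after sham surgery and 0.45, -1.20 and -1.13 after BDL (-4.46 ± 1.58, adjusted p = 0.0454). The first of those sham livers, FSAP-deficient sham 1, lay within the range of the BDL livers. Without that array the WT change had an adjusted p of 0.00694 and the FSAP-deficient change was -6.68 (adjusted p = 0.000763), and without the 3 arrays with Y-linked signal the latter was -7.18 (adjusted p = 0.00616). The FSAP-deficient call was lost without any 1 of 9 arrays (WT sham 1, 2 or 3, WT BDL 3, FSAP-deficient sham 2 or 3, or FSAP-deficient BDL 1, 2 or 3), with adjusted p from 0.0582 to 0.156.

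Cyp2b13, made chiefly in female liver, showed the deepest fall in WT: it was at 4.17, 5.51 and 4.47 in WT sham and -3.54, -5.02 and -3.52 in WT BDL livers (-8.74 ± 2.40, adjusted p = 0.0172; 0.0544 to 0.0557 without WT sham 2 or WT BDL 2). In FSAP-deficient livers it was at -6.01, 5.09 and 5.01 against -1.85, -5.66 and -4.67 (-5.42 ± 2.40, adjusted p = 0.0969). Cyp2b9, also made chiefly in female liver, was at 1.74, 2.50 and 1.65 in WT sham and -4.67, -2.00 and -3.93 in WT BDL livers (-5.50 ± 1.89, adjusted p = 0.046). Its FSAP-deficient livers were at -6.15, 2.72 and 2.64 against -4.24, -5.23 and -5.67 (-4.78 ± 1.89, adjusted p = 0.0673). Again FSAP-deficient sham 1 was as low as the BDL livers. The WT call of Cyp2b9 was lost without any 1 of 9 arrays (each WT array and each FSAP-deficient BDL array), with adjusted p from 0.057 to 0.115. FSAP-deficient sham 1 also enters these WT tests through the shared estimate of spread. Without it the WT adjusted p was 0.000177 for Cyp2b9 and 8.56e-05 for Cyp2b13 (limma).

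Cyp2d members fell less, in 6 of 9 cases in each genotype. Cyp2d40 changed most: it was at 5.81, 5.66 and 6.01 in WT sham and 2.26, 2.69 and 2.46 in WT BDL livers, and at 5.84, 5.49 and 5.78 against 2.70, 2.33 and 1.87 in FSAP-deficient livers. These 10.2-fold and 10.6-fold falls (-3.36 ± 0.22 and -3.40 ± 0.22, adjusted p = 5.16e-06 and 5.89e-06) had small spread in all 4 groups. Cyp2d13 changed by -1.67 ± 0.23 and -2.07 ± 0.23, and Cyp2d10, Cyp2d22, Cyp2d26 and Cyp2d34 by -0.88 to -0.65 in WT and -1.13 to -1.01 in FSAP-deficient liver. The WT calls of Cyp2d10, Cyp2d22 and Cyp2d34 were lost without 9, 8 and 5 of the 12 arrays left out one at a time, each of WT sham 1, 2 and 3 and WT BDL 1 and 3 among them for all 3 genes (adjusted p up to 0.154). For the first 2 of these genes WT BDL 2 and FSAP-deficient sham 2 were also among them, with FSAP-deficient sham 3 and BDL 3 for Cyp2d10 and FSAP-deficient BDL 2 for Cyp2d22. The other probe of Cyp2d34 changed by 1.66 and 0.73 (adjusted p = 0.286 and 0.642), and with the mean of both probes the WT change turned to 0.48 (adjusted p = 0.611). Cyp2d9, a testosterone 16-alpha-hydroxylase higher in male liver, was at 3.13, 2.93 and 2.73 in WT sham, 3.21, 4.24 and 2.75 in WT BDL, 6.48, 3.94 and 2.83 in FSAP-deficient sham and 5.67, 4.86 and 3.00 in FSAP-deficient BDL livers. Its highest values came from the arrays with Y-linked signal, and neither BDL change passed (0.47 ± 0.87 and 0.09 ± 0.87).

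In the smaller subfamilies of family 2 the changes were mixed. Cyp2j5, an arachidonic acid epoxygenase, was at 0.26, 0.33 and 0.47 in WT sham and -2.01, -2.10 and -2.48 in WT BDL livers (-2.55 ± 0.20, adjusted p = 1.41e-05), and fell by a similar size in FSAP-deficient liver (-2.31 ± 0.20, adjusted p = 2.3e-05). Its relative Cyp2j13 fell (-1.39 ± 0.14 and -1.04 ± 0.14), while Cyp2j6 changed by -0.13 ± 0.14 and -0.04 ± 0.14 (its other probe by -0.96 and -0.61, adjusted p = 0.00261 and 0.0237) and Cyp2j9 by -0.21 ± 0.38 and -0.62 ± 0.38. Cyp2r1, a vitamin D 25-hydroxylase, changed by -0.58 ± 0.27 in WT (adjusted p = 0.124) and fell in FSAP-deficient liver (-1.03 ± 0.27, adjusted p = 0.0112), and Cyp2t4 passed in neither. Cyp2s1, found mostly in epithelia, was at -2.72, -2.42 and -2.57 in WT sham and -2.43, -1.41 and -1.06 in WT BDL livers, and at -2.18, -2.62 and -2.01 against -1.01, -0.88 and -0.65 in FSAP-deficient livers. It rose in both (0.93 ± 0.31, adjusted p = 0.0379; 1.43 ± 0.31, adjusted p = 0.00416). WT BDL 1 lay within the sham range. The WT rise was 0.14 with slide as a block (adjusted p = 0.748), and its call was lost without WT sham 1, 2 or 3 or WT BDL 2 or 3 (adjusted p from 0.0654 to 0.136) and without the 3 arrays with Y-linked signal (0.0692).

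Cyp2u1, a fatty acid hydroxylase, was at 6.62, 6.22 and 6.54 in WT sham and 7.24, 6.93 and 7.12 in WT BDL livers (0.64 ± 0.31, adjusted p = 0.142). FSAP-deficient livers had values of 8.27, 7.17 and 7.37 after sham surgery and 6.35, 7.13 and 6.13 after BDL (-1.07 ± 0.31, adjusted p = 0.0197). The BDL livers lay above the sham livers in WT and below them in FSAP-deficient mice. Without FSAP-deficient sham 1, BDL 1 or BDL 3 the second change did not pass (adjusted p from 0.0602 to 0.0734). The difference between the 2 changes was -1.71 ± 0.44, with an adjusted p of 0.156 over all genes; it was -1.97 with Y-linked signal as a term of the model (adjusted p = 0.025) and -1.78 without the 3 arrays with such signal (adjusted p = 0.0415), where the 1 FSAP-deficient BDL array left is assumed to vary like the other groups. These values come from the brighter of 2 probes, which is annotated to a transcript outside RefSeq; the probe for the RefSeq transcript was well above background on 3 arrays and changed by -0.25 in WT and -1.53 in FSAP-deficient liver (adjusted p = 0.844 and 0.161).

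Cyp3a members fell in 3 of 8 cases in WT and 2 of 8 in FSAP-deficient liver. The second share (25%) was near the 22.8% of all genes tested that fell. Cyp3a11, the main drug- and steroid-oxidising member and a target of the pregnane X receptor (PXR), was at 7.11, 6.60 and 7.72 in WT sham and 7.68, 7.89 and 7.62 in WT BDL livers, and at 8.02, 6.50 and 7.39 against 7.91, 7.05 and 7.32 in FSAP-deficient livers. Sham and BDL livers overlapped in both genotypes (0.59 ± 0.39, adjusted p = 0.274; 0.12 ± 0.39, adjusted p = 0.824). The other probe of Cyp3a11 went the other way, by -0.83 in WT and -0.57 in FSAP-deficient liver, and did not pass either (limma, adjusted p = 0.183 and 0.346). Cyp3a13 changed by -0.72 ± 0.69 and 0.37 ± 0.69 and Cyp3a25 by -0.09 ± 0.33 and -0.79 ± 0.33, none past the test; Cyp3a59 missed it in both (adjusted p = 0.0502 and 0.0758). Cyp3a57 changed by -0.12 ± 0.31 in WT and fell in FSAP-deficient liver (-0.86 ± 0.31, adjusted p = 0.0495), a call lost without any 1 of 9 arrays (all but WT sham 2 and 3 and FSAP-deficient BDL 1; adjusted p from 0.0534 to 0.148).

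The Cyp3a members that fell in WT were those known as higher in female liver. Cyp3a41b was at 6.43, 5.86 and 6.65 in WT sham and 2.88, 3.24 and 3.05 in WT BDL livers (-3.26 ± 0.69, adjusted p = 0.00463), and at 3.23, 4.68 and 6.60 against 3.68, 2.07 and 2.67 in FSAP-deficient livers (-2.03 ± 0.69, adjusted p = 0.0381; -1.15, adjusted p = 0.111, without FSAP-deficient sham 3). The last call was lost without WT sham 1, WT BDL 3, FSAP-deficient sham 2 or 3 or FSAP-deficient BDL 2 or 3 (adjusted p from 0.0501 to 0.12). Cyp3a44 was at 6.10, 6.28 and 5.71 in WT sham and 0.97, -1.55 and 0.31 in WT BDL livers (-6.13 ± 1.99, adjusted p = 0.0365, and 0.0527 to 0.113 without any 1 of the 6 WT arrays). That p was 0.000254 without FSAP-deficient sham 1, which enters through the shared estimate of spread (limma). In FSAP-deficient livers Cyp3a44 was at -3.41, 5.58 and 5.88 against -0.75, -3.46 and -1.44 (-4.57 ± 1.99, adjusted p = 0.0926). Cyp3a16 fell in WT (-1.82 ± 0.43, adjusted p = 0.00862) and changed by -0.88 ± 0.43 in FSAP-deficient liver (adjusted p = 0.133; 0.0385 without FSAP-deficient BDL 1). The probes of Cyp3a41b and Cyp3a44 are identical at 46 of 53 aligned bases.

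In family 4 the largest falls were in Cyp4a, a subfamily with classical targets of the peroxisome proliferator-activated receptor alpha (PPAR-alpha). Of 7 Cyp4a members tested, 3 fell in each genotype and 4 did not pass. Cyp4a10, a fatty acid omega-hydroxylase, was at 4.46, 4.54 and 4.24 in WT sham and -0.01, -2.00 and -0.72 in WT BDL livers, a 40.0-fold fall (-5.32 ± 0.95, adjusted p = 0.0018). FSAP-deficient livers had values of 0.78, 4.60 and 3.44 against 0.53, -1.66 and 1.24 (-2.90 ± 0.95, adjusted p = 0.0328). FSAP-deficient sham 1 lay among the BDL livers. Cyp4a31 and Cyp4a32 moved alike, by -5.12 ± 0.91 and -5.19 ± 0.85 in WT and -2.87 ± 0.91 and -2.81 ± 0.85 in FSAP-deficient liver. All 3 FSAP-deficient calls were lost without FSAP-deficient sham 2 or 3 or FSAP-deficient BDL 2, and that of Cyp4a10 also without FSAP-deficient BDL 1 (adjusted p from 0.0512 to 0.121). The probes of Cyp4a10 and Cyp4a31 are identical at 44 of 47 aligned bases. Cyp4a14, another classical target, was at 0.28, 0.81 and 0.17 in WT sham, 0.20, -5.17 and -0.77 in WT BDL, -5.61, 3.71 and 2.80 in FSAP-deficient sham and -0.71, -2.98 and 1.62 in FSAP-deficient BDL livers, and passed in neither genotype. Ppara itself fell by 3.20 in WT and by 2.12 in FSAP-deficient liver (both ± 0.24). The part of that fall in the Cyp4a changes was not tested.

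Among the 8 Cyp4f members 5 fell in both genotypes. Cyp4f14, which inactivates leukotriene B4, was at 6.31, 5.85 and 6.24 in WT sham and 2.39, 3.53 and 2.46 in WT BDL livers, and at 5.60, 5.86 and 6.16 against 3.72, 3.60 and 2.29 in FSAP-deficient livers. This was a 10.1-fold fall in WT and a 6.35-fold fall in FSAP-deficient liver (adjusted p = 0.000156 and 0.000503). Cyp4f40 changed by -2.35 ± 0.42 and -2.42 ± 0.42, with 1 of 3 BDL arrays well above background in each genotype, and Cyp4f13, Cyp4f15 and Cyp4f17 by -0.96 to -0.71 in WT and -1.14 to -0.74 in FSAP-deficient liver. Calls were lost in WT for Cyp4f15 without WT sham 1, 2 or 3, WT BDL 2 or 3 or FSAP-deficient sham 2 or 3 or BDL 2 (adjusted p from 0.0535 to 0.146), for Cyp4f17 without WT sham 1 or 2 or WT BDL 2 or 3 (0.07 to 0.11), and in FSAP-deficient liver for Cyp4f15 without FSAP-deficient sham 1, 2 or 3 or BDL 2 or 3 (0.0571 to 0.106). Cyp4v3, a fatty acid omega-hydroxylase, changed by -1.19 ± 0.27 and -1.56 ± 0.27. Cyp4b1, best known from lung, changed by -1.26 ± 0.34 and -0.99 ± 0.34 (adjusted p = 0.017 and 0.043); the WT call was lost without WT sham 3 (0.0536), and the other without 9 of the 12 arrays, all but WT BDL 1 and 3 and FSAP-deficient sham 1 (0.0556 to 0.147).

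The Cyp4f members that rose did so against the direction of their relatives. Cyp4f16 was at -2.14, -2.63 and -2.45 in WT sham and -0.78, -0.69 and -0.68 in WT BDL livers, a 3.23-fold rise (1.69 ± 0.20, adjusted p = 0.000162). In FSAP-deficient livers it was at -3.13, -2.59 and -2.38 against -0.63, -0.33 and -0.51, a 4.63-fold rise (2.21 ± 0.20, adjusted p = 3.33e-05). All 6 BDL livers were above all 6 sham livers. Cyp4f18, which hydroxylates leukotriene B4 in neutrophils, was at -1.22, -1.46 and -1.82 in WT sham and -0.85, -0.06 and -0.60 in WT BDL livers (1.00 ± 0.30, adjusted p = 0.0263), and at -1.30, -1.31 and -1.26 against -0.25, -0.06 and 0.90 in FSAP-deficient livers (1.49 ± 0.30, adjusted p = 0.00298). Its WT call was lost without WT sham 2 or 3 or WT BDL 2 or 3 (adjusted p from 0.0518 to 0.102), and with slide as a block both were (0.65, adjusted p = 0.386; 1.46, adjusted p = 0.0602). Cyp4f39, an omega-hydroxylase of very long fatty acids in skin, was at -4.72, -4.65 and -5.54 in WT sham and -3.85, -3.53 and -2.93 in WT BDL livers (1.54 ± 0.32, adjusted p = 0.00409; 0.0967 with slide as a block). FSAP-deficient livers had values of -4.81, -3.90 and -4.30 against -4.43, -3.99 and -4.27 (0.11 ± 0.32, adjusted p = 0.816). Beside these rises stood the rises of bile duct, macrophage and myofibroblast markers given above, whose part was not tested.

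**Figure D4:**
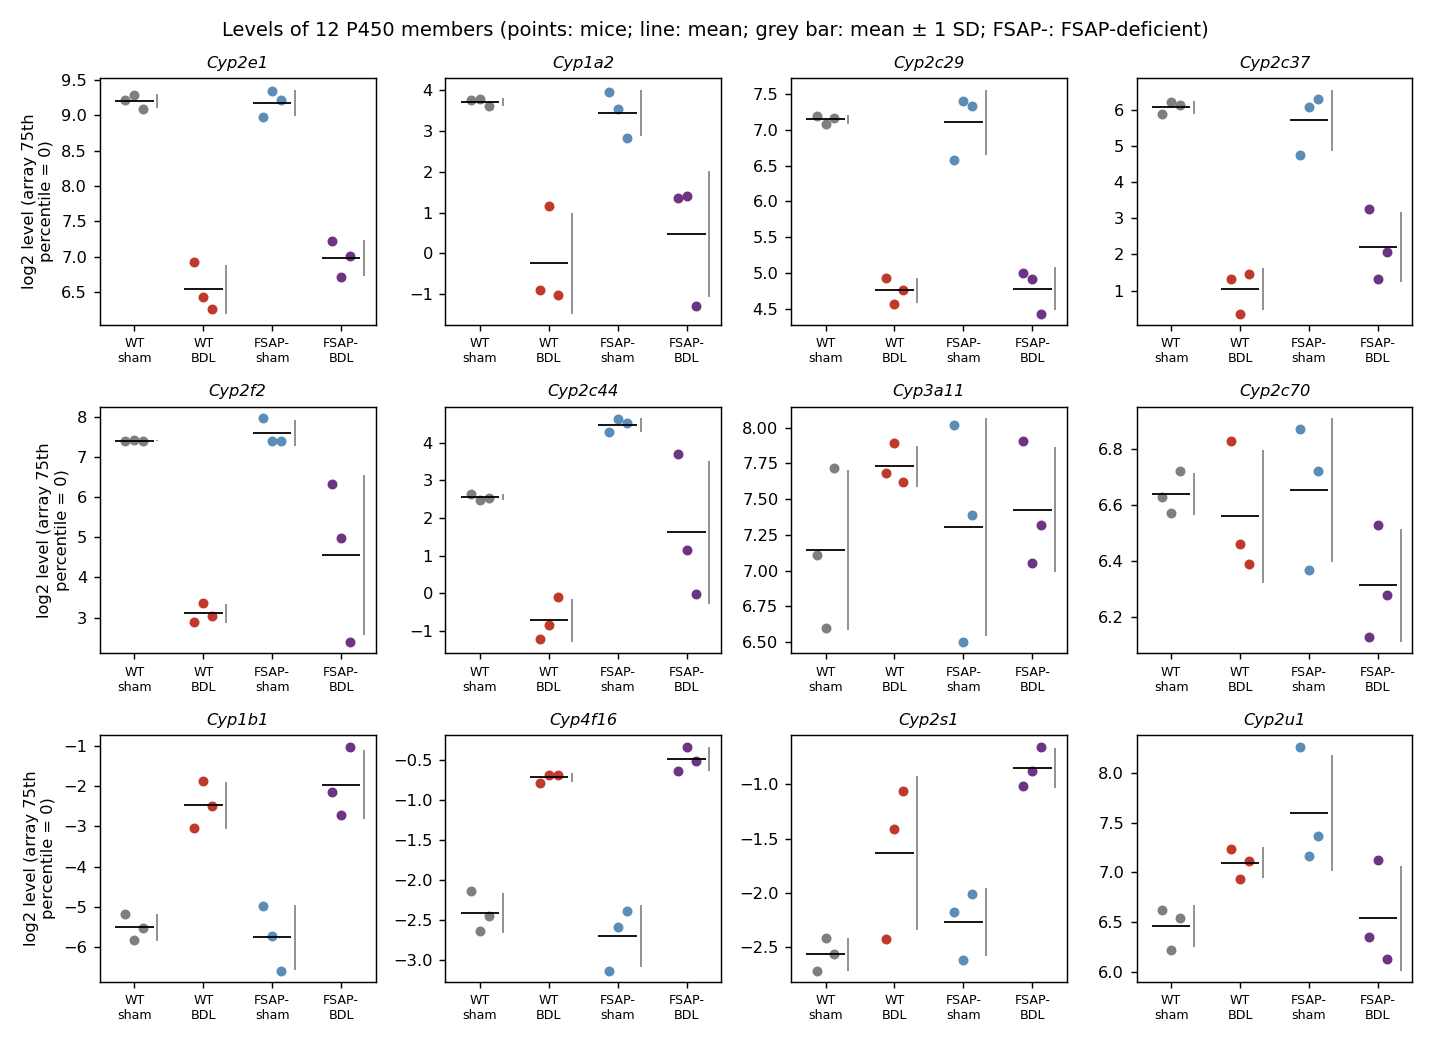
Log2 level (y axis, relative to the 75th percentile of the array) of 12 members in each of the 12 livers; points are single mice, black lines are group means, grey bars are the mean ± 1 SD, and the 4 groups are on the x axis. Falling members drop in both genotypes, Cyp1b1 and Cyp4f16 rise in both, and Cyp2c70 and Cyp3a11 overlap between sham and BDL livers.

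Members known as higher in female or male mouse liver are described here beside the Y-linked signal of each liver. Of the 9 members listed as female-biased, 6 are on the array under those names (Cyp2a4, Cyp2b9, Cyp2b13, Cyp2c39, Cyp3a16 and Cyp3a44). All 6 fell in WT (median -4.91), where no liver had Y-linked signal, and 1 of 6, Cyp2c39, passed in FSAP-deficient liver (median -3.35). FSAP-deficient sham 1, the sham array with Y-linked signal, lay below the other 5 sham arrays in all 6, by least in Cyp3a16 (5.69, against 5.86 to 7.68). Without that array 4 of 6 fell in FSAP-deficient liver (median -5.11): Cyp2b9 (-7.73, adjusted p = 9.42e-05), Cyp2b13 (-9.11, adjusted p = 0.000177), Cyp3a44 (-7.61, adjusted p = 0.000194) and Cyp2c39. Without all 3 arrays with Y-linked signal it was also 4 of 6 (median -5.02), with Y-linked signal as a term of the model 1 of 6 (median -2.40), and with slide as a block, where FSAP-deficient sham 3 is the only sham array behind the change, 6 of 6. The count of all members that fell in FSAP-deficient liver was 39 without FSAP-deficient sham 1 and 42 without the 3 arrays.

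Of the 42 members called in FSAP-deficient liver, all 42 kept their direction without the 3 arrays with Y-linked signal and 38 kept their call. The calls of Cyp2c66, Cyp3a57, Cyp4b1 and Cyp4f17 were lost (adjusted p = 0.171, 0.125, 0.181 and 0.0559). For 7 members the change was over 1.5 times larger without them. These were Cyp2f2, Cyp2b10 and Cyp2c44, given with their genes, Cyp1a2 (-4.49 instead of -2.97), Cyp2r1 (-1.61 instead of -1.03), Cyp4f15 (-1.22 instead of -0.74) and Cyp4f40 (-3.70 instead of -2.42). With Y-linked signal as a term of the model 39 of the 42 kept their call, and Cyp2b10, Cyp3a41b and Cyp4b1 did not (adjusted p = 0.0898, 0.0784 and 0.0873).

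Among the 9 livers without Y-linked signal the sham and BDL values of these genes did not overlap. Cyp2b13 was at 4.17 to 5.51 in 5 sham livers and -5.02 to -3.52 in 4 BDL livers. Cyp3a44 was at 5.58 to 6.28 against -1.55 to 0.97, and Cyp2b9 at 1.65 to 2.72 against -5.67 to -2.00. Cyp2a4 was at 8.24 to 8.88 against 2.47 to 6.22, Cyp2c39 at 5.78 to 5.91 against 3.43 to 4.11, and Cyp3a16 at 5.86 to 7.68 against 5.05 to 5.62. The gap was narrowest in Cyp3a16, whose FSAP-deficient change without the arrays with Y-linked signal did not pass (adjusted p = 0.0699). In the opposite direction, Cyp4a12a, a male-biased fatty acid hydroxylase, was at 4.52 in FSAP-deficient sham 1 and 2.98 in FSAP-deficient BDL 1, and at -5.97 to -2.54 in the 9 livers without Y-linked signal. Cyp4a12b was at 5.18 and 3.19 in the same pair. FSAP-deficient BDL 2, which also had Y-linked signal, was at -4.03 in Cyp4a12a, within the range of the 9. None of the 3 male-biased members on the array (Cyp2d9, Cyp4a12a and Cyp4a12b) passed in any comparison (limma), and 0 had an unadjusted p below 0.05.

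**Figure D5:**
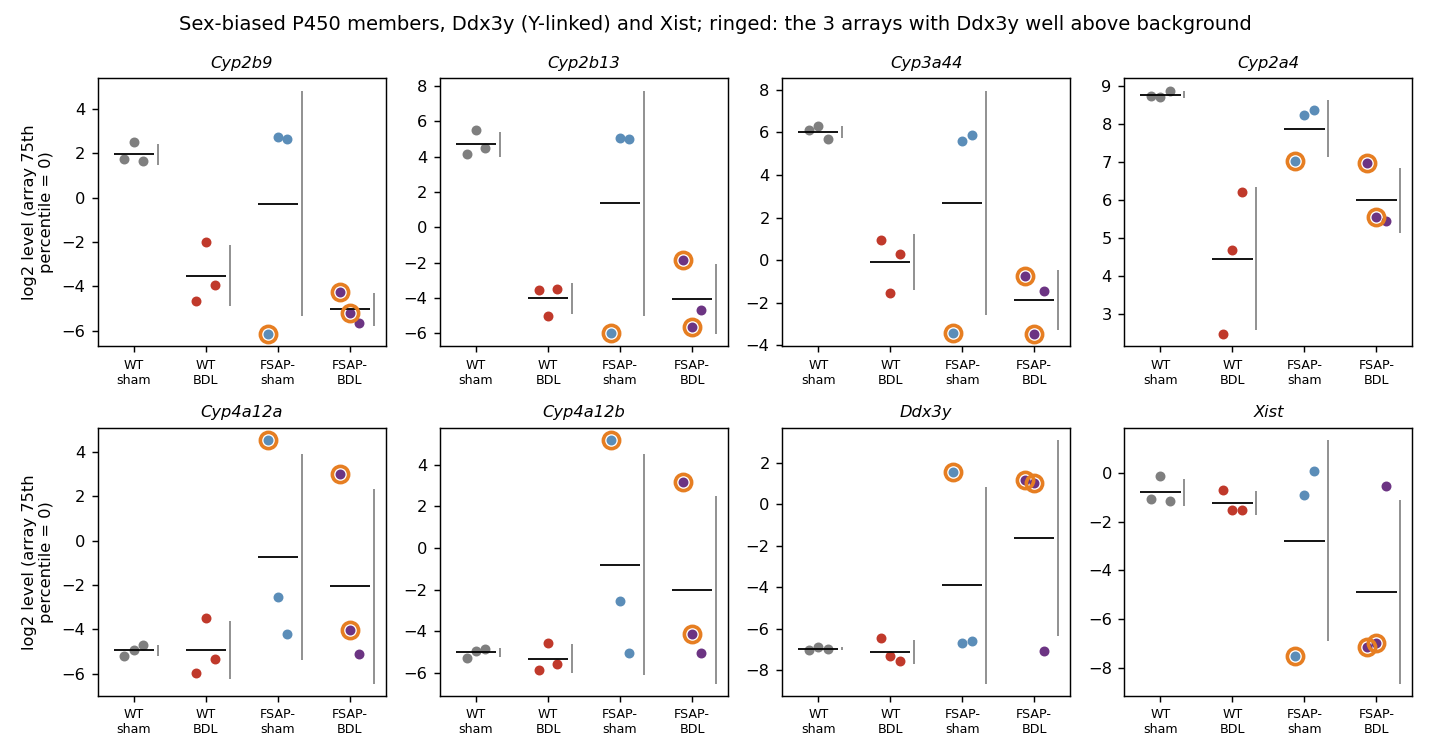
Log2 level (y axis) of 6 sex-biased members, Ddx3y and Xist in each liver, by group (x axis), with the mean as a line and the mean ± 1 SD as a grey bar; rings mark the 3 livers with Y-linked signal. FSAP-deficient sham 1 lies with the BDL livers in Cyp2b9, Cyp2b13 and Cyp3a44 and far above the other sham livers in Cyp4a12a.

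Spread differed between the groups. The median standard deviation of a member within a group was 0.20 in WT sham, 0.34 in WT BDL, 0.50 in FSAP-deficient sham and 0.61 in FSAP-deficient BDL livers, against 0.16, 0.24, 0.24 and 0.29 over all genes tested. FSAP-deficient sham 1 differed from the WT sham mean by more than 2 log2 units in 14 of 66 members (21.2%, against 2.71% of all genes), 3 higher and 11 lower. FSAP-deficient BDL 1 differed that much from the WT BDL mean in 11 members, all higher (16.7%, against 2.07%).

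No member passed in the comparisons of genotype. Of 66 members 0 differed between FSAP-deficient and WT sham livers, where 0.0154% of all genes did, 0 differed after BDL, where 0.215% did, and 0 had a BDL change that differed between genotypes, where 0.0102% did (limma, adjusted p below 0.05). At an unadjusted p below 0.05 the counts were 5, 11 and 5 of 66, against 1538, 2522 and 2678 of 19531 genes. With 3 mice a group and the spread above, these comparisons leave room for sizeable differences. No slide held arrays of both genotypes after the same surgery, so none of the genotype differences was read within a slide. The 2 genotypes' values did not overlap for 9 members in sham livers (13.6%, against 17.1% of all genes) and for 13 after BDL (19.7%, against 15.7%), shares near those of all genes.

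Cyp2c38 and Cyp2c44 were the members whose genotypes did not overlap after either surgery. Cyp2c38 was at 6.34, 6.47 and 6.40 in WT sham and 5.62, 6.01 and 6.05 in FSAP-deficient sham livers (-0.51 ± 0.14, adjusted p = 0.3), and at 4.11, 3.97 and 4.20 against 3.61, 3.55 and 3.49 after BDL (-0.54 ± 0.14, adjusted p = 0.151). Cyp2c44, an epoxygenase listed as Cyp2c23 in RefSeq, was at 2.64, 2.49 and 2.52 in WT sham and 4.28, 4.63 and 4.52 in FSAP-deficient sham livers (1.93 ± 0.71, adjusted p = 0.499). After BDL it was at -1.23, -0.85 and -0.10 against 3.69, 1.16 and -0.01 (2.34 ± 0.71, adjusted p = 0.198). The 2 higher of those FSAP-deficient values came from arrays with Y-linked signal, and without the 3 such arrays the difference was 0.72 (adjusted p = 0.306). The sham values lay far apart beside their own spread, and the adjusted p was 0.0518 when the 2 sham groups alone were fitted with limma. All WT sham arrays were on slide 1, which held no FSAP-deficient array. With slide as a block the sham difference was 1.32 ± 1.68 (limma, adjusted p = 0.837). Without the 3 arrays with Y-linked signal it was 2.02. In both genotypes the gene fell after BDL (-3.28 ± 0.71 and -2.86 ± 0.71, adjusted p = 0.00517 and 0.009), the second by -4.58 without those 3 arrays (adjusted p = 0.000487). The probes of both lie on chromosome 19 in mm9 (chr19:39465415-39465474 and chr19:44079535-44079594), the chromosome of Habp2; whether they lie in the stretch that came with the deleted allele was not tested. Cyp2f2 was 1.46 higher in FSAP-deficient than in WT livers after BDL (adjusted p = 0.43), and 2.54 higher with an adjusted p of 0.0301 without FSAP-deficient BDL 3, the only change of call among members in that comparison when 1 array was left out. Without the 3 arrays with Y-linked signal the direction turned, to -0.72 (adjusted p = 0.12), and with that signal as a term the difference was 0.18 (adjusted p = 0.912).

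Genes that supply P450 enzymes with electrons and haem fell in part. Of 17 tested, 8 fell and 1 rose in WT, and 9 fell and 1 rose in FSAP-deficient liver, with medians of -0.55 and -0.70. In WT these were 47.1% and 5.88%, where 17.7% of all genes tested fell and 15.2% rose. In FSAP-deficient liver they were 52.9% and 5.88%, against 22.8% and 16.2%. Cyb5b, a cytochrome b5, changed by -1.90 ± 0.28 and -1.63 ± 0.28, and Pgrmc2, a haem-binding membrane protein, by -1.25 ± 0.17 and -1.29 ± 0.17. Fech, which puts iron into haem, changed by -0.77 ± 0.13 and -0.93 ± 0.13. Hmox1, which breaks haem down, rose by 2.84 ± 0.45 and 2.11 ± 0.45 (the second with adjusted p = 0.0545 without the 3 arrays with Y-linked signal). Por, the oxidoreductase, changed by 0.54 ± 0.24 (adjusted p = 0.104) and 0.23 ± 0.24 (adjusted p = 0.476), and Alas1, the first enzyme of haem synthesis, by -0.07 ± 0.41 and 0.19 ± 0.41.

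Among 23 tested regulators of P450 genes 10 fell and 2 rose in WT, and 12 fell and 1 rose in FSAP-deficient liver (medians -0.42 and -0.67). In WT these were 43.5% and 8.70%, where 17.7% of all genes tested fell and 15.2% rose. In FSAP-deficient liver they were 52.2% and 4.35%, against 22.8% and 16.2%. Among the regulators that passed, the largest falls after that of Ppara were those of Onecut1 in WT (-2.17 ± 0.43; -1.14 ± 0.43, adjusted p = 0.0586, in FSAP-deficient liver), Ghr, the growth hormone receptor (-2.06 ± 0.27 and -1.95 ± 0.27), Cebpa (-1.86 ± 0.28 and -1.41 ± 0.28) and Foxa2 (-1.40 ± 0.17 and -1.25 ± 0.17). Nr1i3, which encodes CAR, changed by -1.06 ± 0.23 and -1.09 ± 0.23, and Stat5b, which carries the growth hormone signal, by -0.57 ± 0.15 and -0.74 ± 0.15; its calls were lost without WT sham 2 (adjusted p = 0.0512, WT) and without the 3 arrays with Y-linked signal (-0.46, adjusted p = 0.093, FSAP-deficient). Nr1i2, which encodes PXR, changed by 0.65 ± 0.28 (adjusted p = 0.0995) and 0.14 ± 0.28 (adjusted p = 0.715). Hnf4a changed by 0.10 ± 0.18 in WT (adjusted p = 0.713) and fell in FSAP-deficient liver (-0.59 ± 0.18, adjusted p = 0.0212), a call lost without FSAP-deficient sham 1 or 3, without FSAP-deficient BDL 3 (0.0564 to 0.0705) or without the 3 arrays with Y-linked signal (0.0538).

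Of 12 P450 genes of other families tested, 2 fell and 2 rose in WT, and 3 fell and 3 rose in FSAP-deficient liver. In WT this was 16.7% in each direction, near the 17.7% of all genes tested that fell and the 15.2% that rose. In FSAP-deficient liver it was 25% in each direction, against 22.8% and 16.2%. A difference from families 1 to 4 was not tested. Cyp8b1, the sterol 12-alpha-hydroxylase of cholic acid synthesis, changed by -4.74 ± 0.43 and -4.08 ± 0.43, and Cyp7b1, an oxysterol hydroxylase, by -2.63 ± 0.89 and -2.84 ± 0.89. The FSAP-deficient change of Cyp7b1 was -1.57 without FSAP-deficient sham 1 (adjusted p = 0.0343) and did not pass without FSAP-deficient BDL 3 (0.0964); its WT call was lost without any 1 of the 6 WT arrays or FSAP-deficient BDL 1 or 2 (0.0501 to 0.111). Cyp7a1, the rate-limiting enzyme of bile acid synthesis, changed by -0.75 ± 0.51 (adjusted p = 0.289) and -0.30 ± 0.51 (adjusted p = 0.671). Tbxas1, the thromboxane synthase, rose by 1.32 ± 0.23 and 2.52 ± 0.23, and Cyp26a1, which clears retinoic acid, by 1.64 ± 0.54 and 1.68 ± 0.54. The WT call of Cyp26a1 was lost without any WT array but WT BDL 2 (adjusted p from 0.0539 to 0.12) and without the 3 arrays with Y-linked signal (0.0698). Its FSAP-deficient call was lost without FSAP-deficient sham 1 or 2 or BDL 1 or 2 (0.0542 to 0.104; a change of 1.1 without sham 2), without those 3 arrays (0.283) and with Y-linked signal as a term (0.0573).

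Several probes stand behind 18 members, and 16 of these had more than 1 probe tested. All tested probes of a gene gave the same call for 13 of 16 in WT and 10 of 16 in FSAP-deficient liver. The genes that disagreed were Cyp2c38, Cyp2d34 and Cyp2j6 in both, and Cyp2r1, Cyp2u1 and Cyp4a10 in FSAP-deficient liver. Beside the 4 pairs of similar probes named above, those of Cyp4f17 and Cyp4f40 are identical at 37 of 51 aligned bases; all other pairs of the 2485 among the members shared at most 29. The 2 probes of Cyp4a29 lie at different places on chromosome 4 (chr4:12043536-12043595 and chr4:114923306-114923365 in mm9), and its brighter probe, the one tested, changed by 0.04 ± 0.25 and 0.14 ± 0.25.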

How the data were processed

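Liver RNA of 12 mice was read on 12 Agilent mouse arrays with 1 Cy3-labelled sample each. Per the file headers the authors deposited spot intensity values from Feature Extraction 10.5.1.1 (protocol GE1_105_Jan09), already corrected for background, with probe positions in mm9 (NCBI37). The authors also deposited a log2 table of the same arrays, whose columns had medians from 5.65 to 5.66; it was used as an alternative, with its normalization not stated in the labels or headers. The file of FSAP-deficient sham 1 had signals rounded to 3 digits and shifted gene names, so it was joined by probe name.

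The main values were log2(processed signal) minus the array's 75th percentile of it. Outlier spots were masked and spots of 1 probe were averaged; 79 of 234372 gene values were missing. Each gene name took its brightest probe, and 19531 names well above background on 3 or more arrays were fitted together in limma 3.58.1 (R 4.3.3; 4 group means, 8 residual and 2.69 prior degrees of freedom; two-sided, Benjamini-Hochberg threshold 0.05). Scripts also used Python 3.11.15, pandas 2.3.3, numpy 2.4.6 and matplotlib 3.10.9. Names of other genes were updated through RefSeq accessions, which matched 26412 of 39429 probes. The fit was tested on simulated data. The number of arrays limits the precision; the labels describe 3 mice a group.

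Members and gene lists were chosen with earlier results of these data known. Members were named with values when they changed most in their subfamily or are well known; Cyp2c38, Cyp2c67, Cyp2d10, Cyp2d13, Cyp2d26, Cyp2d34, Cyp2j9, Cyp2j13, Cyp2t4, Cyp3a57, Cyp3a59, Cyp4a29, Cyp4a31, Cyp4a32, Cyp4f15, Cyp4f17, Cyp4f39 and Cyp4f40 were added after their values were seen. The 4 well-known names Cyp2a5, Cyp2c40, Cyp2c69 and Cyp3a41a are not on the array under those names. Alternatives covered background correction, scaling, the deposited log2 table, the filter on dim genes, the choice of probe, slide, replicate number, the groups in the fit, each array left out, and the arrays with Y-linked signal.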

Additional observations from a re-analysis of the deposited data

Results flagged for a closer look

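The values of Cyp2u1 after BDL lay on opposite sides of the sham values in the 2 genotypes. Each WT BDL liver lay above the WT sham mean and each FSAP-deficient BDL liver lay below the FSAP-deficient sham mean. The FSAP-deficient change minus the WT change was -1.71 on the log2 scale, from 0.64 in WT and -1.07 in FSAP-deficient liver, with an adjusted p of 0.156 over all genes (interaction term of the limma fit across all genes), so the difference did not pass. FSAP-deficient sham 1 and FSAP-deficient BDL 1 and 2, which enter the second change, carried Y-linked signal; the values with and without those arrays stand with the gene above.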

How the results depend on the processing

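Among the BDL changes of the tested members, 1 called change turned its direction under an alternative: Cyp2d34 in WT was 0.48 with the mean of all probes (adjusted p = 0.611). Counts of members that fell after BDL ranged from 31 to 40 in WT and from 29 to 39 in FSAP-deficient liver when 1 array was left out, and counts that rose from 4 to 6 and from 5 to 5. Over all alternatives with a test, 24 of the 39 falls and 2 of the 6 rises in WT (Cyp1b1 and Cyp4f16) kept their call, as did 17 of 37 and 3 of 5 in FSAP-deficient liver (Cyp1b1, Cyp2s1 and Cyp4f16). The alternatives drew on the same arrays, so a kept call is not an independent check. Cyp1b1 had passed the filter on dim probes only through BDL arrays. The rises in WT numbered 3 with slide as a block, where WT BDL 1 is the only BDL array behind the change. In the comparison of genotypes after BDL, 0 to 1 members were higher when 1 array was left out, the 1 being Cyp2f2. The interaction gave 1 member, Cyp2u1, both without the 3 arrays with Y-linked signal and with that signal as a term. Median scaling moved the median of all genes to -0.19 in WT and -0.36 in FSAP-deficient liver and gave 43 falls in the latter; quantile normalization and the deposited log2 table each lost 6 WT calls (adjusted p from 0.0526 to 0.209), and testing every gene name without a filter lost 8 (from 0.0575 to 0.0917). Replicate numbers did not pair the mice: same-numbered arrays correlated at -0.20 to 0.19, and a replicate block left 39 falls and 6 rises in WT and 37 and 5 in FSAP-deficient liver, with Cyp3a44 losing its WT call (adjusted p = 0.0524) and Cyp4a10 its FSAP-deficient call (0.0507). Dim members such as Cyp1a1, Cyp1b1, Cyp2c66 and Cyp4f39 are limited by signal over background.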
